A study of Mus musculus with 18 samples.

Results

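The metallothioneins and the machinery of zinc homeostasis were followed through 5 mouse genes, chosen by symbol: Mt1, Mt2, Mtf1, Slc30a1 and Slc39a10. Their Ensembl identifiers were matched to symbols in GENCODE M21, and all 5 were found among the 55414 gene identifiers of the count table. Polyadenylated RNA was sequenced from wild type C57BL/6J mice breathing PM2.5, which is fine airborne particulate matter, or filtered air for 30 days. The libraries fell into 4 groups in 2 experiments: whole spleen after PM2.5 (n = 4) against whole spleen after air (n = 4), and macrophages isolated from spleen after PM2.5 (n = 5) against macrophages after air (n = 5). Each library is called a biological replicate in its title. For the macrophage experiment the description mentions filtered air following the 30 days of air or PM2.5, without a duration. The titles of PM2.5 libraries begin with CAP, an abbreviation that the labels leave unexplained, and they also hold the word Air. The treatment text names PM2.5 as the exposure.

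Metallothioneins are small cysteine-rich proteins that bind zinc and copper and can take up cadmium. Free zinc is sensed by MTF1, a zinc-finger transcription factor encoded by Mtf1, which binds metal response elements in the promoters of Mt1, Mt2 and Slc30a1. Slc30a1 encodes ZnT1, the zinc exporter of the plasma membrane, and Slc39a10 encodes ZIP10, a zinc importer; Slc39a10 has been described as repressed by MTF1. Metallothionein genes also respond to glucocorticoids, to oxidative stress and to inflammation, and in the spleen the red pulp macrophages handle the metal and heme of ageing red cells.

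The 3 promoters with a match to the core of the metal response element, which MTF1 binds, are shown. They are RefSeq promoters on GRCm38.p6, each 300 bases long from 250 bases before to 50 after the annotated start, on the plus strand. Capitals mark TGCACNC or TGCGCNC on either strand, and no matches overlapped.
Mt2, chr8:94172368-94172667: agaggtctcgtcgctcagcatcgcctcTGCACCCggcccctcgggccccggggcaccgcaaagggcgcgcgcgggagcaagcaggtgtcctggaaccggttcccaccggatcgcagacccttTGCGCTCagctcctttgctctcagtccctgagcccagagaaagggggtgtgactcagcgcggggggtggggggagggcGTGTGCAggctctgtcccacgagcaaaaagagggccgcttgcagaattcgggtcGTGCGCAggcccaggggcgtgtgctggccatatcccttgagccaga
Mt1, chr8:94178839-94179138: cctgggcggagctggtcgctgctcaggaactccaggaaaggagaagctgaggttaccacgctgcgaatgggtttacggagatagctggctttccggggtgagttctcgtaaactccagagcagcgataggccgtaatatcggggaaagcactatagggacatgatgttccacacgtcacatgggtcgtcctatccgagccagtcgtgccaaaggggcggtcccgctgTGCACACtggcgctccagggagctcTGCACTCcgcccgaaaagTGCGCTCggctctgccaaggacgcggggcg
Slc30a1, chr1:191906531-191906830: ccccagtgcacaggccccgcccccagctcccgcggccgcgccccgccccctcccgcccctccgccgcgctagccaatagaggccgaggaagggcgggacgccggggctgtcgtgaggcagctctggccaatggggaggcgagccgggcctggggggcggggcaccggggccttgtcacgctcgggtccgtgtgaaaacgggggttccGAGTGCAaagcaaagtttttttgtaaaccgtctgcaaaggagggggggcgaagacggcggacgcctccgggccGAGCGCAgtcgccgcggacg
The Mt2 promoter held 4 matches, a number reached by 0.518% of the 32851 RefSeq promoters of this length. The Mt1 promoter held 3 matches, reached by 1.97%, and the Slc30a1 promoter held 2, reached by 7.11%. At least 1 match occurred in 25.7% of all promoters. The Mtf1 promoter and both Slc39a10 promoters of the RefSeq set held no match in these windows. The windows lay at RefSeq starts, which differ from the GENCODE gene bounds given below. For Slc39a10 the window chr1:46925727-46926026 lay outside those bounds and chr1:46853569-46853868 lay inside them. The Mtf1 window, chr4:124802299-124802598, lay inside the bounds of its gene. A match is a description of letters and not a measured binding site.

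Mt1 (ENSMUSG00000031765) lies at chr8:94179082-94180327 and Mt2 (ENSMUSG00000031762) at chr8:94172664-94173568 in GRCm38, both on the plus strand with 5513 bases between them. Mtf1 (ENSMUSG00000028890) lies at chr4:124802104-124849800 on the plus strand. Slc30a1 (ENSMUSG00000037434) lies at chr1:191906767-191913247 on the plus strand, and Slc39a10 (ENSMUSG00000025986) at chr1:46807544-46892852 on the minus strand. The principal transcripts of Mt1 and Mt2 are short, with 549 and 511 bases, whereas those of Mtf1, Slc30a1 and Slc39a10 have 7631, 5244 and 5498 bases. No 50-base word of the Mt1 transcript occurred in another annotated gene, so that reads of Mt1 and Mt2 could be told apart. Of the 462 such words of Mt2, 210 also lay in the antisense gene Gm45774, which had at most 20 counts in a library. The strand setting of the counting is not given in the sources used here, and reads of Mt2 and Gm45774 in the shared stretch may therefore not be separated. The same holds for the ends that Mtf1 shares with 1110065P20Rik, which had up to 278 counts in a library, and that Slc30a1 shares with 1700034H15Rik, which had up to 42.

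Library totals ran from 16493694 to 20352346 counts in spleen and from 18107264 to 33844807 counts in macrophages. Replicate 1 of the macrophage PM2.5 group stood apart in 2 respects. Its treatment tag reads air, against the CAP of its title and against its description. It was grouped by title, which also holds the word Air, as do those of all PM2.5 libraries. Its transcripts under 1000 bases lay 0.559 log2 units above those of 4000 bases or more, relative to all macrophage libraries, whereas the other 9 macrophage libraries lay between -0.0455 and 0.0232 on this measure. In spleen the measure lay between -0.147 and -0.0102 in all 4 PM2.5 libraries, against 0.144, -0.0111, 0.121 and 0.157 in air libraries 1 to 4, and the groups overlapped through air library 2. With an offset for length and GC content the spleen log2 fold change was 1.60 for Mt2 (adjusted p = 0.172, edgeR) and 0.38 for Mt1. Since both metallothionein transcripts are short and the other 3 are long, the macrophage result of each of the 5 genes is also given without this library. The label of the preparation fitted its markers: the 8 red pulp macrophage markers summed to between 11350 and 16090 CPM in PM2.5 macrophages and 13020 and 18010 CPM in air macrophages, against 392.4 to 607.3 CPM in PM2.5 spleens and 228.7 to 489.3 CPM in air spleens. CPM, the level used throughout, is a gene's count relative to its library total after scaling all 18 libraries together. Erythroid markers were also present in the macrophage libraries, where the 10 of them summed to between 2785 and 5197 CPM after PM2.5 and between 1516 and 5798 CPM after air. B cell markers were present there too, and the 6 of them summed to between 2333 and 3631 CPM after PM2.5 and between 1944 and 3156 CPM after air. In PM2.5 spleens they summed to between 3606 and 4836 CPM and in air spleens to between 4855 and 5722 CPM.

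All 5 genes passed the filter on low counts in both experiments. None passed the test for PM2.5 against air in either one, by edgeR's quasi-likelihood test with Benjamini-Hochberg adjustment over all genes. The background was 0.0121% of the 16551 genes tested in spleen and 0% of the 15696 tested in macrophages, so this test called almost nothing at all. Genes with an unadjusted p under 0.05 made up 16.7% in spleen and 10.9% in macrophages, and Mt2 was the member among them in each experiment. DESeq2 called 5.02% of the genes in spleen and 1.12% in macrophages, and called Mt2 higher after PM2.5 in both. Its calls in that direction made up 3.28% of genes in spleen and 0.867% in macrophages. No member's libraries were separated without overlap between PM2.5 and air, which 8.98% of genes were in spleen and 2.24% in macrophages.

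**Figure D1:**
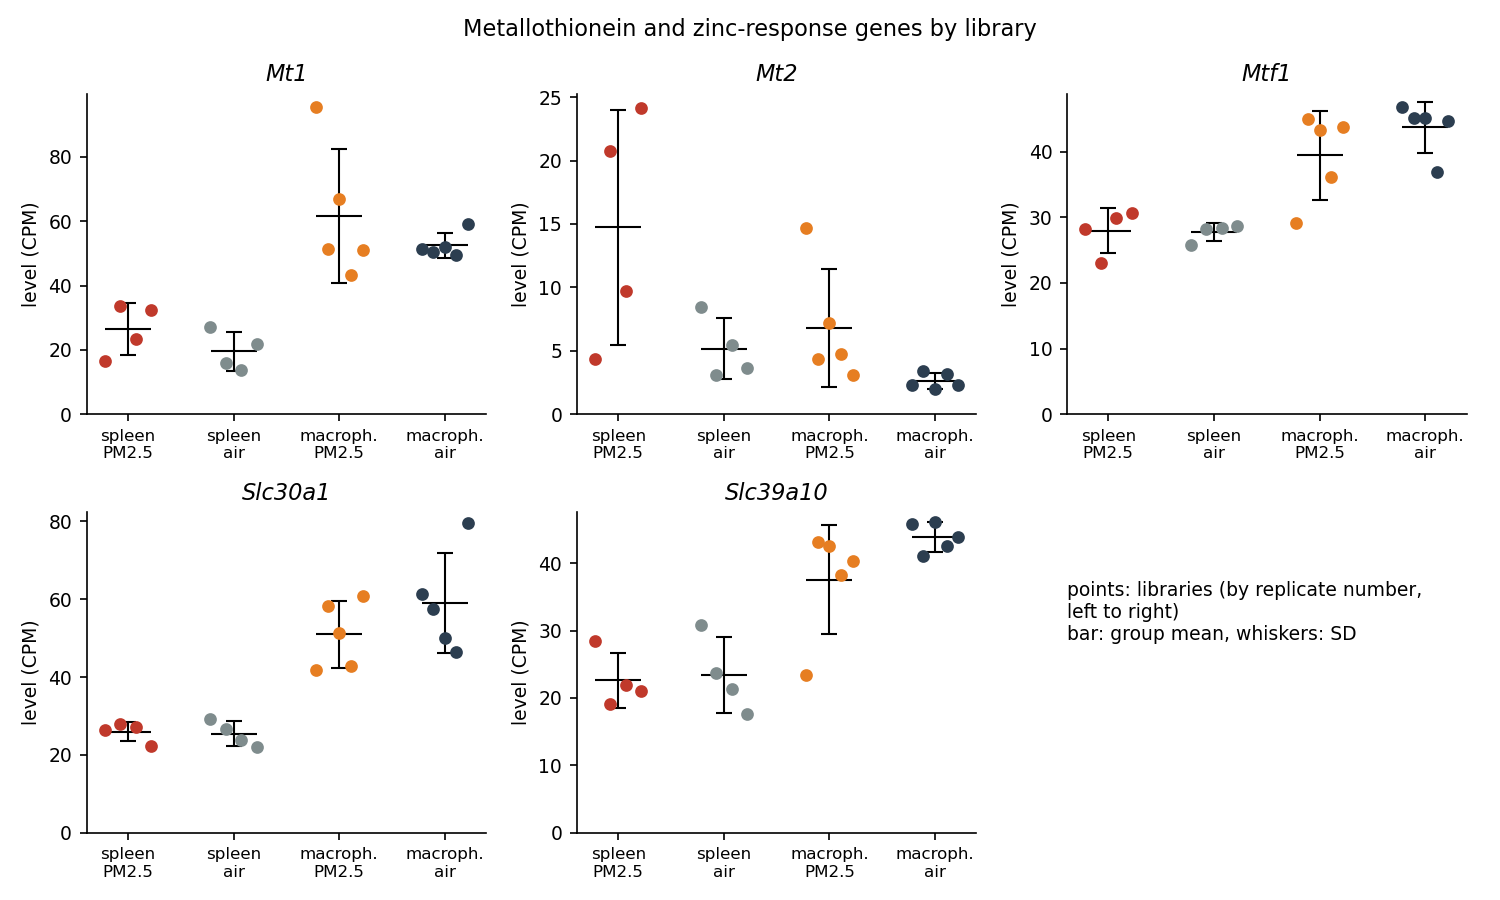
Levels of the 5 genes in CPM (vertical axes, from 0) in every library, for PM2.5 and air in whole spleen and in macrophages. Points are libraries, bars are group means and whiskers are SD; Mt2 reached 24.2 CPM in PM2.5 spleens and 14.7 CPM in PM2.5 macrophages, and its ranges overlapped with those of air in both.

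Mt2 encodes the second of the broadly expressed metallothioneins. It had 4.38, 20.7, 9.71 and 24.2 CPM in the PM2.5 spleens, replicates 1 to 4, against 8.48, 3.12, 5.44 and 3.68 CPM in the air spleens. Of the 4 PM2.5 spleens, 3 lay above every air spleen, and replicate 1 lay within the air range. The means were 14.8 ± 9.27 CPM after PM2.5 and 5.18 ± 2.41 CPM after air (SD, n = 4 each). On the log2 scale the fold change was 1.51 with a 95% interval from 0.42 to 2.60, and the adjusted p was 0.172 by edgeR and 0.0316 by DESeq2. These values rest on 105 to 518 counts of Mt2 per PM2.5 spleen and 65 to 141 counts per air spleen.

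Several marker lists varied across the spleens, and the erythroid list was not the only one to do so alongside Mt2. The 10 erythroid markers, all detected in both groups, summed to 510, 9504, 2422 and 5820 CPM in PM2.5 spleens, replicates 1 to 4, against 1690, 217, 269 and 457 CPM in air spleens. Replicates 2 and 4 held the most erythroid transcripts and the most Mt2 of the PM2.5 group, and replicate 1 did so among the air spleens. Within the PM2.5 group erythroid markers were highest in replicate 2, whereas Mt2 was highest in replicate 4. Without PM2.5 replicates 2 and 4 the Mt2 log2 fold change was 0.47 (adjusted p = 0.792, edgeR). They were also the PM2.5 spleens with the most Mt2, so leaving them out lowers the estimate whatever the erythroid content. After PM2.5 all 10 erythroid markers had a higher estimate (median log2 fold change 3.68, beside 0.0172 over all genes). DESeq2 called 7 of them and edgeR 0, with all 10 at an unadjusted p under 0.05. Over all genes DESeq2 called 5.02% and 16.7% had such a p. The 6 mesothelial markers summed to between 24.2 and 220 CPM in PM2.5 spleens and between 2.75 and 4.80 CPM in air spleens. Within the PM2.5 group mesothelial and red pulp macrophage sums were lowest in replicate 1 and highest in replicate 4. The 6 adipocyte markers summed to 2.05, 102, 55.7 and 549 CPM in PM2.5 spleens, replicates 1 to 4, in the same order as Mt2. In air spleens 1 to 4 they summed to 13.95, 231, 31.0 and 2.25 CPM, in an order unlike that of Mt2. The 8 neutrophil markers summed to between 17.3 and 202 CPM in PM2.5 spleens and between 3.07 and 81.1 CPM in air spleens, where Ly6g was at 0. The 6 hepatocyte markers summed to 44.1 and 87.4 CPM in air spleens 3 and 4, and to at most 7.56 CPM in every other spleen; without those 2 libraries the Mt2 log2 fold change was 1.36. The 6 B cell markers summed to between 3606 and 4836 CPM in PM2.5 spleens and between 4855 and 5722 CPM in air spleens, and the 6 T cell markers to between 535 and 711 CPM in PM2.5 spleens and between 684 and 962 CPM in air spleens. The part of these markers in the Mt2 values was not tested. In bulk RNA a change in the share of cells of a type and a change in RNA per cell cannot be told apart.

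**Figure D2:**
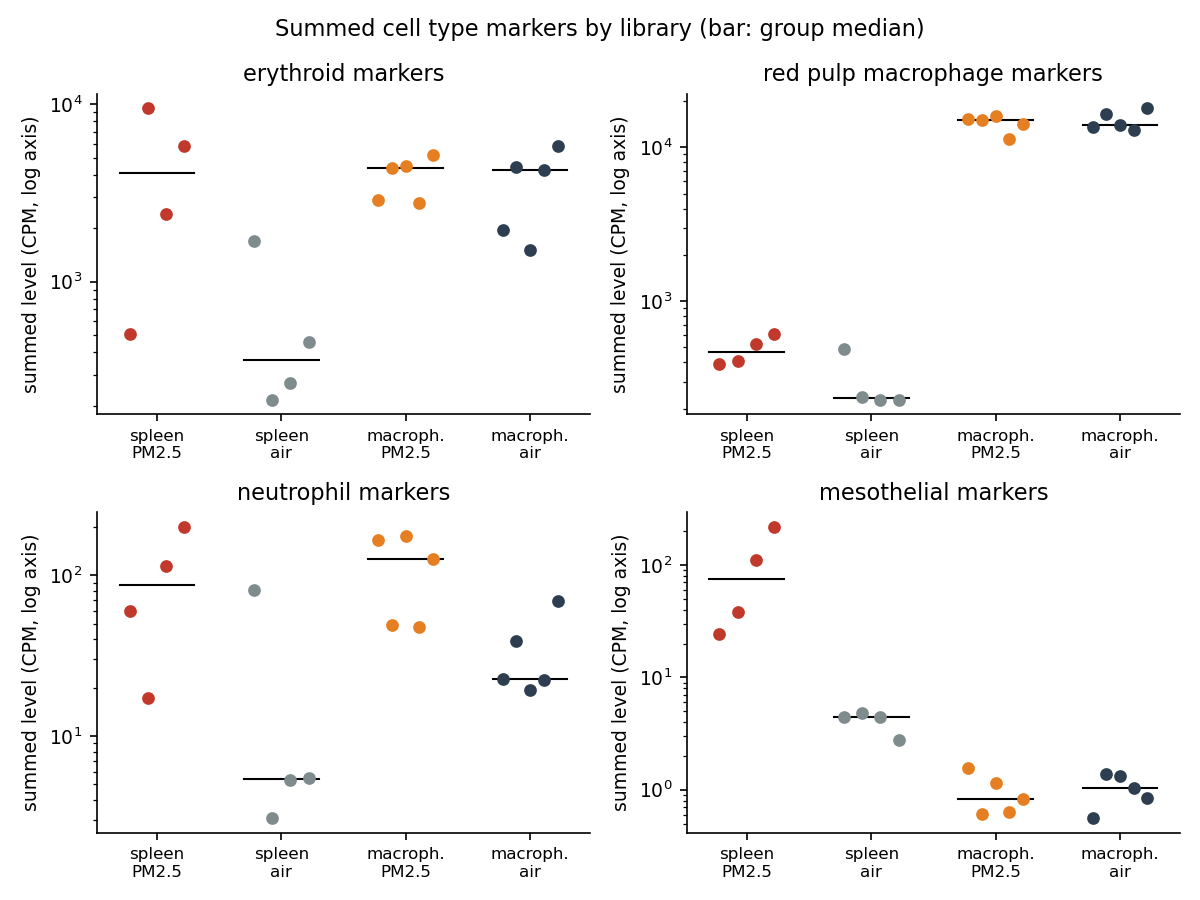
Summed levels of marker lists in CPM (vertical log axes) in every library; points are libraries in order of replicate number and bars are group medians. Erythroid sums ran from 510 to 9504 CPM in PM2.5 spleens and from 217 to 1690 CPM in air spleens, and mesothelial sums did not overlap between those groups.

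In macrophages Mt2 had 14.7, 4.33, 7.18, 4.76 and 3.11 CPM after PM2.5, replicates 1 to 5, against 2.31, 3.44, 1.96, 3.19 and 2.29 CPM after air. Of the 5 PM2.5 libraries, 4 lay above every air library, and the highest was the replicate 1 that stands apart. The means were 6.81 ± 4.64 CPM after PM2.5 and 2.64 ± 0.641 CPM after air (SD, n = 5 each). Its log2 fold change of 1.37 had a 95% interval from 0.53 to 2.21, and the adjusted p was 0.287 by edgeR and 0.0286 by DESeq2. Without replicate 1 of the PM2.5 group the log2 fold change was 0.88 with an SE of 0.255, an unadjusted p of 0.00588 and an adjusted p of 0.263 (edgeR). With that library counted as air, as its tag reads, it was 0.066 (adjusted p = 0.982). Mt2 was a scarce transcript here, with 82 to 243 counts per PM2.5 library and 38 to 62 per air library.

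Among the marker lists, neutrophil markers had the largest median log2 fold change in macrophages, 1.90 beside 0.00621 over all genes. All 7 tested markers had a higher estimate after PM2.5, all with an unadjusted p under 0.05, and 3 were called by DESeq2 and 0 by edgeR. Over all genes 10.9% had such a p and DESeq2 called 1.12%. The 8 markers summed to 166, 49.0, 177, 48.0 and 126 CPM in PM2.5 libraries 1 to 5 and to between 19.4 and 69.1 CPM in air libraries. Replicates 1 and 3 were the highest of the PM2.5 group in both neutrophil markers and Mt2, whereas replicate 5 was high in neutrophil markers and the lowest in Mt2. All 6 plasma cell markers had a higher estimate after PM2.5, with a median of 0.848 and 5 at an unadjusted p under 0.05. DESeq2 called 1 of them, Tnfrsf17 (adjusted p = 0.0409), and edgeR 0. They summed to 4380, 1269, 1990, 3832 and 1806 CPM in PM2.5 libraries 1 to 5 and to between 640 and 2129 CPM in air libraries. Replicate 1 was the highest of the PM2.5 group in both plasma cell markers and Mt2, and replicate 2 was the lowest in plasma cell markers. The erythroid ranges of the 2 macrophage groups overlapped, as given above. Of the 8 red pulp macrophage markers 7 had a lower estimate after PM2.5, 3 at an unadjusted p under 0.05, with a median log2 fold change of -0.188. Of the 6 T cell markers 5 had a higher estimate, 3 at an unadjusted p under 0.05, with a median of 0.511. The 5 tested endothelial markers all had a lower estimate, 1 at an unadjusted p under 0.05, with a median of -0.29. In these 3 lists 0 markers were called by either tool. All 6 B cell markers had a higher estimate, with a median of 0.183, 0 at an unadjusted p under 0.05 and 0 called by either tool. The red pulp markers summed to between 11350 and 16090 CPM after PM2.5 and between 13020 and 18010 CPM after air, and the T cell markers summed to between 129 and 149 CPM after PM2.5 and between 116 and 171 CPM after air. The part of these cell types in the Mt2 values was not tested.

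Mt1 encodes the other broadly expressed metallothionein and had more counts than Mt2 in all 18 libraries. In spleen it had 16.6, 33.6, 23.3 and 32.3 CPM after PM2.5, against 27.1, 15.9, 13.8 and 21.7 CPM after air. The PM2.5 spleens of replicates 2 and 4 lay above all air spleens, and the other 2 lay within the air range. Its log2 fold change was 0.43 with a 95% interval from -0.16 to 1.02 (adjusted p = 0.452, edgeR), and it was 0.046 without these 2 replicates. In macrophages Mt1 had 95.6, 51.3, 66.9, 43.4 and 51.1 CPM after PM2.5, against 51.3, 50.4, 52.0, 49.6 and 59.2 CPM after air. Replicates 1 and 3 of the PM2.5 group lay above the air range, replicate 4 lay below it, and the other 2 lay within it. The log2 fold change of 0.24 had a 95% interval from -0.16 to 0.63 (adjusted p = 0.656, edgeR) and was 0.011 without the replicate 1 that stands apart. Mt3 and Mt4, the metallothioneins best known from brain and from squamous epithelium, did not pass the filter, and Mt4 had 0 counts in every library.

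**Figure D3:**
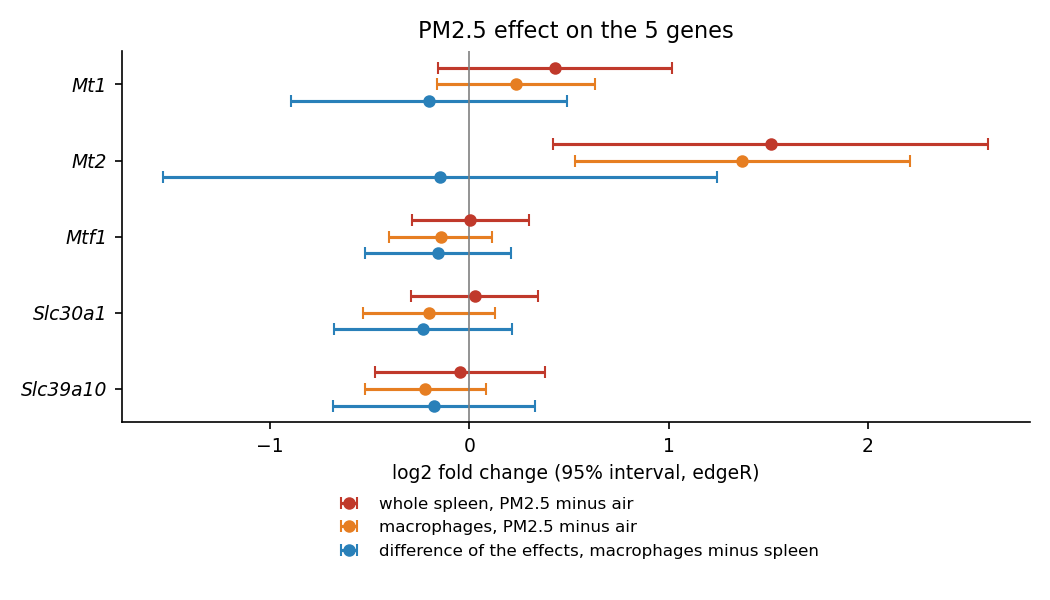
Log2 fold change of each gene with its 95% interval from edgeR (horizontal axis) for PM2.5 over air in whole spleen, PM2.5 over air in macrophages, and the difference of the 2 effects, macrophages minus spleen. The intervals of Mt2 lie above 0 in both experiments, from 0.42 to 2.60 and from 0.53 to 2.21, before adjustment over all genes, and every other interval holds 0.

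The ratio of Mt2 to Mt1 counts does not depend on how libraries are scaled. The principal transcripts have nearly the same length, whereas all annotated exons span 588 bases in Mt2 and 1246 in Mt1. Reads of Mt2 and the antisense gene Gm45774 may not be separated, and Gm45774 had its highest count, 20, in PM2.5 macrophage replicate 1. In macrophages the log2 ratio was -2.70, -3.57, -3.22, -3.19 and -4.04 after PM2.5, replicates 1 to 5, against -4.47, -3.87, -4.73, -3.96 and -4.69 after air. In this measure 4 PM2.5 libraries lay above every air library, and replicate 5 lay within the air range. The mean was -3.34 ± 0.50 after PM2.5 and -4.35 ± 0.41 after air (SD, n = 5 each), a difference of 1.002 on the log2 scale, or 2.003-fold. An exact two-sided permutation test gave p = 0.0238, and 0.0476 after adjustment over the 2 experiments, where the smallest possible p was 0.00794. The call was at the edge of the threshold: leaving out 1 library at a time gave differences from 0.84 to 1.18, with adjusted p from 0.0317 to 0.0952 in these exact permutation tests, and held only without PM2.5 replicate 5. Without replicate 1 of the PM2.5 group the difference was 0.84 (adjusted p = 0.0952, exact permutation test), and with it counted as air it was 0.57 (adjusted p = 0.229).

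In spleen the log2 ratio was -1.92, -0.69, -1.27 and -0.42 after PM2.5, against -1.68, -2.34, -1.34 and -2.56 after air. Again 3 of the 4 PM2.5 spleens lay above every air spleen and replicate 1 lay within the air range. The mean was -1.07 ± 0.66 after PM2.5 and -1.98 ± 0.57 after air, a difference of 0.91 that did not pass the exact permutation test (p = 0.114, also after adjustment; the smallest possible p was 0.0286 with n = 4 each). Mt1 exceeded Mt2 by 1.34 to 3.78 times in counts in PM2.5 spleens and by 2.54 to 5.91 times in air spleens. In macrophages Mt1 exceeded Mt2 by 6.51 to 16.4 times after PM2.5 and by 14.7 to 26.6 times after air.

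**Figure D4:**
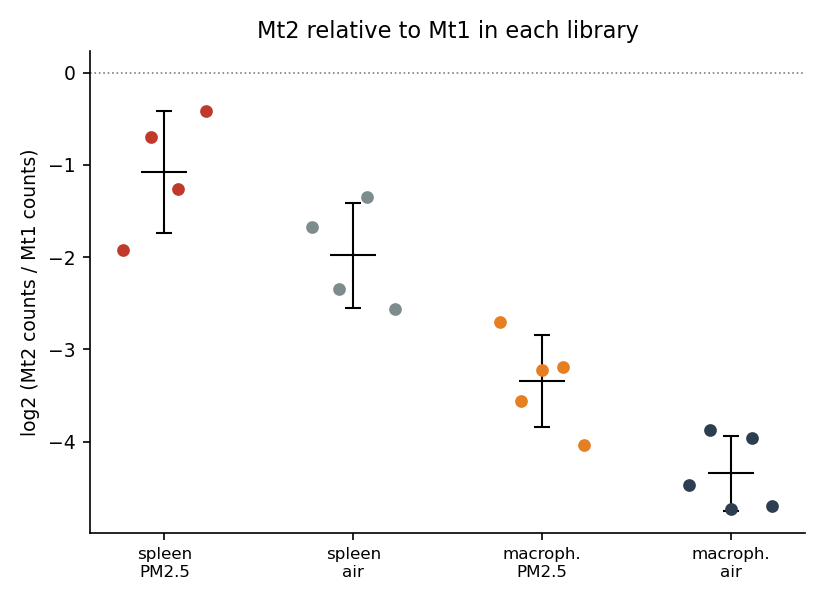
Log2 ratio of Mt2 to Mt1 counts (vertical axis) in every library by group, with the mean and SD; the dotted line marks equal counts. All 18 libraries lie below it, and macrophage libraries lie lower than spleen libraries.

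Mtf1, the zinc sensor, had 28.2, 23.1, 29.9 and 30.7 CPM in PM2.5 spleens, against 25.8, 28.2, 28.4 and 28.7 CPM in air spleens. The ranges overlapped on both sides. Its log2 fold change was 0.0047 with a 95% interval from -0.29 to 0.30 (adjusted p = 0.991, edgeR). In macrophages Mtf1 had 29.1, 45.0, 43.3, 36.1 and 43.8 CPM after PM2.5, against 46.8, 45.1, 45.2, 36.9 and 44.7 CPM after air. The lowest value was that of replicate 1 of the PM2.5 group. This gave a log2 fold change of -0.14 with a 95% interval from -0.40 to 0.11 (adjusted p = 0.682, edgeR), and it was -0.066 without that replicate.

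Slc30a1, the exporter that lowers cytosolic zinc, had 26.3, 27.9, 27.2 and 22.4 CPM in PM2.5 spleens, against 29.3, 26.6, 23.9 and 22.02 CPM in air spleens. The PM2.5 range lay inside the air range, and the log2 fold change was 0.026 with a 95% interval from -0.29 to 0.34 (adjusted p = 0.947, edgeR). In macrophages it had 41.8, 58.2, 51.4, 42.9 and 60.8 CPM after PM2.5, against 61.3, 57.4, 50.1, 46.5 and 79.6 CPM after air. The PM2.5 libraries of replicates 1 and 4 lay below all air libraries. Its log2 fold change was -0.20 with a 95% interval from -0.53 to 0.13 (adjusted p = 0.646, edgeR), and it was -0.15 without replicate 1 of the PM2.5 group.

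Slc39a10, the importer, had 28.5, 19.1, 21.9 and 21.1 CPM in PM2.5 spleens, against 30.9, 23.7, 21.3 and 17.6 CPM in air spleens, again inside the air range. Its log2 fold change in spleen was -0.047 with a 95% interval from -0.47 to 0.38 (adjusted p = 0.928, edgeR). In macrophages it had 23.5, 43.1, 42.5, 38.3 and 40.3 CPM after PM2.5, against 45.8, 41.0, 46.2, 42.6 and 43.9 CPM after air. In all, 3 PM2.5 libraries lay below every air library, and replicate 1 lay far below the rest. The resulting log2 fold change was -0.22 with a 95% interval from -0.52 to 0.081 (adjusted p = 0.588, edgeR), and it was -0.11 without replicate 1.

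The PM2.5 effects of the 2 experiments were also compared with each other, as the effect in macrophages minus the effect in spleen. None of the 5 genes passed this test, where the background was 1.46% of 17779 genes. For Mt2 the difference was -0.15 with a 95% interval from -1.54 to 1.24 (adjusted p = 0.929, edgeR), an interval that leaves room for a more than 2-fold difference in either direction. It was -0.62 without replicate 1 of the PM2.5 macrophages and 0.91 without PM2.5 spleens 2 and 4. In both cases the libraries left out held the most Mt2 of their group. For Mt1 the difference was -0.20 with a 95% interval from -0.89 to 0.49 (adjusted p = 0.774, edgeR). Preparation and experiment cannot be told apart in this difference.

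Levels also differed between the preparations. Mt1 averaged 52.5 ± 3.83 CPM in air macrophages (SD, n = 5) and 19.6 ± 6.02 CPM in air spleens (SD, n = 4), 2.68-fold higher in macrophages (adjusted p = 4.4e-05, edgeR). Slc30a1 averaged 59.0 ± 12.9 CPM in air macrophages and 25.5 ± 3.17 CPM in air spleens, 2.32-fold higher (adjusted p = 1.51e-06). Both are known as genes induced by zinc through MTF1, as is Mt2, which had a lower estimate in macrophages. The part of zinc or MTF1 in these levels was not tested. Slc39a10 averaged 43.9 ± 2.17 CPM in air macrophages and 23.4 ± 5.58 CPM in air spleens, 1.88-fold higher (adjusted p = 0.000153). Mtf1 averaged 43.7 ± 3.89 CPM in air macrophages and 27.8 ± 1.32 CPM in air spleens, 1.58-fold higher (adjusted p = 0.000153). These 4 did not overlap between air macrophages and air spleens, as 56.2% of all genes did not, 29.9% of genes with macrophages higher. The 4 calls among 5 genes stand against a background of 66.5% of genes called, with 33.3% called higher in macrophages, so a call by itself was common. All 10 erythroid markers had a higher estimate in air macrophages than in air spleens and 8 passed by edgeR (median log2 fold change 3.51), with sums of 1516 to 5798 CPM in air macrophages and 217 to 1690 CPM in air spleens; their part in the levels of the 5 genes was not tested. With an offset for transcript length and GC content the log2 fold change of Mtf1 was 0.23 in place of 0.66 and did not pass (adjusted p = 0.0805). Of 10 glucocorticoid-responsive genes 8 passed by edgeR as higher in air macrophages and 1 as lower (median log2 fold change 1.89). Of 7 genes of the NRF2 response to oxidative stress 5 passed as higher and 1 as lower (median 0.745). Of 6 heat shock genes 2 passed as higher and 0 as lower, and of 6 tested cytokine and acute phase genes 1 and 1. The part of these metallothionein inducers in the levels of the 5 genes was not tested.

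Mt2 went the other way between the preparations. It averaged 2.64 ± 0.641 CPM in air macrophages (SD, n = 5) and 5.18 ± 2.41 CPM in air spleens (SD, n = 4). The log2 fold change of -0.98 had a 95% interval from -1.97 to 0.021 and did not pass by edgeR (adjusted p = 0.0778), whereas it passed by DESeq2 (adjusted p = 0.0416), which called 68% of genes here. Of the 4 air spleens, 3 lay above all air macrophages, and replicate 2 lay within their range. Fitted with upper-quartile scaling, which moved the median of all genes from 0.000536 to -0.294 on the log2 scale, all 5 members passed. With the main scaling all 5 also passed by edgeR without air spleen 2, without PM2.5 spleen 1 or without PM2.5 macrophage 1. The medians of all genes were then -0.0555, -0.00436 and -0.0347. The 2 preparations were made in separate experiments, so preparation and experiment cannot be told apart.

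Over the 4 groups Mt1, Mtf1, Slc30a1 and Slc39a10 were ordered by preparation. For Mt1 the order from high to low was PM2.5 macrophages at 61.7 CPM, air macrophages at 52.5, PM2.5 spleens at 26.5 and air spleens at 19.6, and ranges overlapped between the exposures but not between the preparations. For Slc30a1, PM2.5 macrophages at 51.0 CPM and air macrophages at 59.0 lay above PM2.5 spleens at 25.9 and air spleens at 25.5, again without overlap between preparations. For Mtf1, PM2.5 macrophages at 39.5 CPM and air macrophages at 43.7 lay above PM2.5 spleens at 27.95 and air spleens at 27.8, and replicate 1 of the PM2.5 macrophages reached into the range of the PM2.5 spleens. Slc39a10 had 37.5 CPM in PM2.5 macrophages and 43.9 in air macrophages, above 22.6 in PM2.5 spleens and 23.4 in air spleens, and the same replicate 1 lay among the spleens of both groups. For Mt2 the order was PM2.5 spleens at 14.8 CPM, PM2.5 macrophages at 6.81, air spleens at 5.18 and air macrophages at 2.64. Only PM2.5 spleens and air macrophages, the ends of that order, had ranges that did not overlap.

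Per kilobase of principal transcript, Mt1 was the most abundant of the 5 genes in every group. It averaged 112 CPM per kilobase in PM2.5 macrophages and 95.6 in air macrophages, and 48.2 in PM2.5 spleens and 35.8 in air spleens. Mt2 came second in spleen, with 28.9 CPM per kilobase after PM2.5 and 10.1 after air. In air macrophages Mt2 was the lowest of the 5, at 5.16 CPM per kilobase, below Mtf1 at 5.73, Slc39a10 at 7.98 and Slc30a1 at 11.3. The place of Mt2 beside Mt1 depends on the length used: over all annotated exons, where Mt1 has 1246 bases, PM2.5 spleens had 25.1 CPM per kilobase of Mt2 and 21.2 of Mt1.

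The wider zinc pathway was described by lists of 28 symbols: 4 metallothioneins, 10 exporters of the Slc30 family and 14 importers of the Slc39 family. In spleen 22 were tested, of which 15 had a higher and 7 a lower estimate after PM2.5 and 0 passed by edgeR, with 2 at an unadjusted p under 0.05; DESeq2 called 2 higher, Mt2 and Slc39a8. Their median log2 fold change was 0.0952 beside 0.0172 over all genes, of which 16.7% had such a p and DESeq2 called 5.02%. In macrophages 23 were tested, 12 with a higher and 11 with a lower estimate, and 0 passed by edgeR, with 1 at an unadjusted p under 0.05; DESeq2 called Mt2. Their median was 0.035 beside 0.00621 over all genes, of which 10.9% had such a p and DESeq2 called 1.12%. Between the preparations 24 were tested, of which 12 passed as higher and 4 as lower in air macrophages, beside 33.3% of all genes in each direction.

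Slc39a8, which encodes the importer ZIP8 of zinc, manganese and cadmium, had the smallest p of the lists in spleen. It had 3.01, 9.41, 15.8 and 22.3 CPM in PM2.5 spleens, against 4.27, 1.49, 2.74 and 1.48 CPM in air spleens. Of the PM2.5 spleens, 3 of 4 lay above the air range and replicate 1 lay within it. Its log2 fold change was 2.33 with an SE of 0.556 (adjusted p = 0.124 by edgeR and 0.000926 by DESeq2). In macrophages it averaged 16.9 ± 3.29 CPM after PM2.5 and 16.6 ± 3.52 CPM after air (SD, n = 5 each), a log2 fold change of 0.035. The effect in macrophages minus that in spleen was -2.31 and passed (adjusted p = 0.0483, edgeR), and it passed in 10 of 31 alternative settings, with adjusted p from 0.00213 to 0.188. The call held without air spleen 1 or 2 or PM2.5 spleen 1 or 2, and was lost when any other single library was left out, PM2.5 spleen 4 giving the highest adjusted p of these, 0.103, at -1.89. Slc39a8 was also higher in air macrophages than in air spleens, by 2.74 on the log2 scale, and all 8 red pulp macrophage markers had a higher estimate in PM2.5 than in air spleens, with a median log2 fold change of 0.746. The part of macrophage content in this result was not tested.

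Other transporters showed no call with exposure. Slc39a7, which releases zinc from the endoplasmic reticulum, had a log2 fold change of 0.66 in spleen (unadjusted p = 0.0824), and Slc39a11 one of 0.29 (unadjusted p = 0.169). In macrophages the smallest p values after Mt2 were those of Slc30a5, which loads zinc into the secretory pathway, with a log2 fold change of 0.14 (unadjusted p = 0.0537), of Slc30a10, a manganese exporter, with 1.21 (unadjusted p = 0.0956), and of Slc39a1, an importer at the plasma membrane, with -0.15 (unadjusted p = 0.105). For the difference of the effects, the importers Slc39a6 and Slc39a3 followed Slc39a8, with 0.32 and -0.47 (unadjusted p = 0.043 and 0.0718 by edgeR). Between the preparations Slc39a1 and Slc39a11 were higher in air macrophages, by 1.26 and 1.23 on the log2 scale (adjusted p = 6.39e-08 and 3.33e-07, edgeR). Slc39a12 averaged 1.78 ± 0.525 CPM in air macrophages and had 0 counts in every air spleen.

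**Figure D5:**
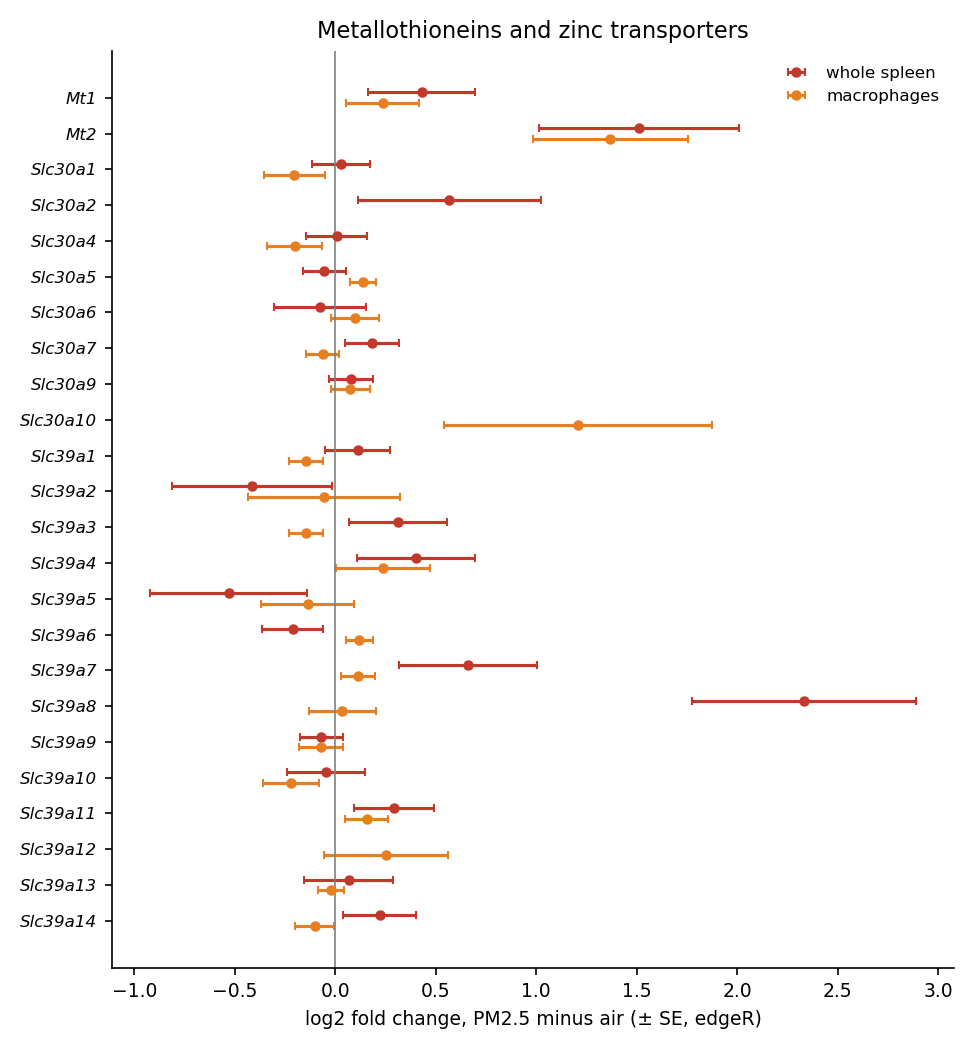
Log2 fold change of PM2.5 over air with its SE from edgeR (horizontal axis) for every tested metallothionein and zinc transporter, in whole spleen and in macrophages. Slc39a8 in spleen and Mt2 in both experiments lie farthest from 0, and most transporters lie within 0.5 of it.

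Other inducers of metallothionein genes were described by their own lists. Over all genes tested in spleen the median log2 fold change was 0.0172, 16.7% had an unadjusted p under 0.05 and DESeq2 called 5.02%. In spleen 8 of 10 glucocorticoid-responsive genes had a higher estimate after PM2.5 (median log2 fold change 0.728). Of the 10, 6 had an unadjusted p under 0.05, 3 were called by DESeq2 and 0 by edgeR. All 6 heat shock genes had a higher estimate, with a median of 0.918, 2 at an unadjusted p under 0.05, 1 called by DESeq2 and 0 by edgeR. Of 7 genes of the NRF2 response to oxidative stress, 5 had a higher estimate, with a median of 0.33, 3 of the list at an unadjusted p under 0.05 and 0 called by either tool. In macrophages the medians were -0.0445 for the glucocorticoid list, -0.192 for heat shock and 0.171 for NRF2, beside 0.00621 over all genes. These 3 lists had 0 calls by either tool and 1 gene at an unadjusted p under 0.05, Dusp1. Over all genes tested in macrophages 10.9% had such a p and DESeq2 called 1.12%. Of 7 cytokine and acute phase genes, 4 were tested in each experiment. In spleen 3 of these had a higher estimate, with a median of 0.256, and 0 had an unadjusted p under 0.05 or were called by either tool. In macrophages 2 had a higher estimate, both at an unadjusted p under 0.05 and neither called by edgeR. They were Lcn2, an iron-siderophore binding protein of neutrophils, with a log2 fold change of 2.12 (adjusted p = 0.0903 by DESeq2), and Socs3, an inhibitor of cytokine signalling, with 0.37 (adjusted p = 0.0381 by DESeq2). For the difference of the effects, 2 glucocorticoid-responsive genes passed as lower in macrophages, the phosphatase Dusp1 at -1.16 and the EGFR inhibitor Errfi1 at -1.14 (adjusted p = 0.0424 and 0.0334, edgeR). Over all genes 1.46% passed that test. Dusp1 passed in 11 and Errfi1 in 18 of 31 alternative settings.

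Of 6 other genes reported to depend on MTF1, 3 had a higher and 3 a lower estimate in spleen, with a median of 0.0976. Among them Slc40a1, the iron exporter ferroportin and itself a marker of red pulp macrophages, averaged 89.9 ± 23.6 CPM in PM2.5 spleens and 37.7 ± 19.8 CPM in air spleens (SD, n = 4 each), with an adjusted p of 0.124 by edgeR and 0.00254 by DESeq2. In macrophages, 4 of these 6 had a higher estimate, 1 had an unadjusted p under 0.05 and 0 passed by either tool. Of 9 genes of copper handling, the other metal of metallothioneins, 3 had a higher and 6 a lower estimate in spleen, and 6 a higher and 3 a lower one in macrophages. Atp7a, a copper exporter, averaged 7.995 ± 0.839 CPM in PM2.5 spleens and 3.48 ± 1.41 CPM in air spleens (SD, n = 4 each), and 47.9 ± 15.97 CPM in PM2.5 macrophages and 56.9 ± 6.14 CPM in air macrophages (SD, n = 5 each). Its effect in macrophages minus that in spleen was -1.44 (adjusted p = 0.0486, edgeR) and passed in 11 of 31 alternative settings, with adjusted p from 0.00358 to 0.219. Of the single libraries, only leaving out air spleen 2, PM2.5 spleen 2 or PM2.5 macrophage 1 or 2 kept that call. Marker genes past the same test were Epor of erythroid cells at -3.74, Cd163, Adgre1 and Treml4 of macrophages at -2.59, -1.24 and -1.29, Stab2 of sinus endothelium at -2.08, Wt1 of mesothelium at -3.65 and Cd3d of T cells at 1.38, all as log2 differences of the effects. Of these Stab2 passed in all 31 alternative settings, Cd163 in 29, Wt1 in 28, Cd3d in 21, Epor in 13, and Adgre1 and Treml4 in 12 each. In the main fit 1.46% of all genes passed.

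Likeness between genes was measured as the Pearson r of deviations of log2(CPM + 1) from the group mean over the 18 libraries, across 17456 genes, as a description. Mt1 and Mt2 had an r of 0.81, which made Mt2 number 68 in the order for Mt1 and Mt1 number 39 for Mt2, and 0.73 without replicate 1 of the PM2.5 macrophages. The genes most like Mt1 were Sod1, a copper and zinc superoxide dismutase, with 0.93, Rasl2-9 with 0.92 and the glycolytic enzyme Tpi1 with 0.91. Those most like Mt2 were Smdt1 of the mitochondrial calcium uniporter with 0.91, Gm15915 with 0.91 and Tmem159 with 0.90. Mtf1 was most like Flna with 0.90, Ago4 with 0.89 and Phactr2 with 0.88, Slc30a1 like Hsf2 with 0.88, Asah2 with 0.86 and Klf3 with 0.84, and Slc39a10 like Iqgap1 with 0.95, Golga4 with 0.95 and Nbeal1 with 0.94. Mt1 had an r of -0.43 with Mtf1 and of -0.44 with Slc39a10, and these were -0.097 and -0.11 without the library in which short transcripts were high. Mt2 had an r of -0.52 with Mtf1 and of -0.49 with Slc39a10, and these were -0.27 and -0.21 without it. The points share libraries, depth and this bias in transcript length.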

How the data were processed

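The authors deposited 1 table of raw counts, unnormalized whole numbers of reads for each Ensembl gene, which they made with HTSeq 0.10.0 after FastQC 0.10.1 on builds named mm10 and GRCm38, per the submitters' processing notes. RNA was extracted with Qiagen RNeasy and libraries were made with NEBNext Ultra II, per the labels' protocols. The aligner, annotation release and strand setting were not given in the sources used here. All 18 columns were matched to a sample by its description, and groups follow the titles. Macrophage column names hold a d, read as days, that the descriptions lack. Within groups no library was a copy of another.

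Symbols came from GENCODE M21 by identifier (52081 of 55414). The analysis used edgeR 4.0.16 in R 4.3.3: filterByExpr (minimum count 10, total 15), TMM, quasi-likelihood test, two-sided, Benjamini-Hochberg over all tested genes, threshold 0.05. Each experiment was fitted alone, and differences of effects and of preparations came from 1 joint fit of the 18 libraries. A log2 fold change is that of PM2.5 over air, or of macrophages over spleen. Intervals use the t quantile of the fit. DESeq2 1.42.0 and limma 3.58.1 served as alternatives, beside other scalings, filters, a replicate block and the omission of each library. Simulated counts with planted changes were used to test each fit. Ratios were compared by exact permutation of libraries. Counting precision follows from the totals and counts given.

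The members and lists were chosen with earlier results of these data known. Named genes were the members, list genes past the threshold, the 3 other zinc genes with the smallest p per comparison, and the 3 genes most like each member. Between the preparations list genes past the threshold were many and are given as counts. Slc40a1, Socs3, Lcn2 and the r of Mt1 and Mt2 with other members were singled out after their values were seen.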

Additional observations from a re-analysis of the deposited data

Results flagged for a closer look

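In all, 3 values stood apart from the rest of their group by Dixon's criterion, out of 24 groups of libraries and measures tested, where chance gives about 1 in 20. Slc39a10 had 23.5 CPM in PM2.5 macrophage replicate 1, against 38.3 to 43.1 CPM in the other 4 PM2.5 macrophages. This is the library with an air tag and high short transcripts. Mt1 had 59.2 CPM in air macrophage replicate 5, above the other 4 air macrophages at 49.6 to 52.0 CPM. Mtf1 had 36.9 CPM in air macrophage replicate 4, below the other 4 air macrophages at 44.7 to 46.8 CPM.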

How the results depend on the processing

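In the PM2.5 comparisons no member passed under the scalings, filters, omissions, offsets and blocks tried in edgeR or under limma-voom, and DESeq2 called 1 member, Mt2, in spleen and 1 in macrophages. The estimate of Mt2 ran from 0.47 to 1.84 in spleen and from 0.066 to 1.56 in macrophages. Zinc list genes past the threshold numbered 0 in both experiments, 2 in spleen and 1 in macrophages with DESeq2, and in spleen 1 with no filter, 1 in the joint fit and 0 to 1 when each library was left out. Counts of all called genes depended on the tool: 2 by edgeR and 830 by DESeq2 in spleen, 461 with no filter, 1050 in the joint fit and 0 to 219 with 1 library left out; 0 by edgeR and 175 by DESeq2 in macrophages. The cause was not tested.

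Whether replicate numbers pair the libraries was not settled. Same-numbered libraries had r of -0.147 to 0.0787 in spleen and -0.153 to 0.352 in macrophages. Unlike-numbered libraries had r of -0.127 to 0.112 in spleen and -0.424 to 0.225 in macrophages. Macrophage replicates 4 and 5, with 0.352 and 0.31, lay above every unlike-numbered pair. With the replicate block the ratio of Mt2 to Mt1 in macrophages, whose difference of 1.002 is the same by construction, had an adjusted p of 0.125 (exact permutation) and lost its call; the smallest p that 5 pairs allow was 0.0625, so this test could not pass. The unpaired difference was 0.57 with the library tagged air counted as air, and 0.84 to 1.18 with 1 library left out. The block changed no call among the 5 members.

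Estimates near 0 changed sign. In spleen, Mtf1 was -0.0001001 with limma-voom, -0.087 with the length and GC offset, -0.00018 with the replicate block, -0.085 with the block and that offset, and -0.037 to 0.10 with 1 library left out. Slc30a1 in spleen was -0.10 without the air libraries with liver transcripts and -0.032 to 0.096 with 1 library left out. Slc39a10 in spleen was 0.13 without the most erythroid PM2.5 libraries and -0.18 to 0.11 with 1 library left out. With the tagged library as air, macrophage values were -0.18 for Mt1, 0.018 for Mtf1 and 0.011 for Slc39a10. For the difference of effects, Mt1 was 0.20 without the most erythroid libraries, Mt2 was 0.91 there, 0.039 without the liver libraries and -0.62 to 0.20 with 1 library left out, Mtf1 was 0.016 with the tagged library as air, and Slc39a10 was 0.060 without the liver libraries and 0.065 with the tagged library as air. The length and GC offset, its use with the block, and the omissions applied to the difference and the ratio were chosen after seeing the data.

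The lowest count of any of the 5 genes was 38, that of Mt2 in air macrophage replicate 5. Mt2 was not the lowest in every library. In PM2.5 spleen 4 it had 518 counts, above Slc30a1 with 479 and Slc39a10 with 452. In PM2.5 spleen 2 it had 432, above Slc39a10 with 397.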
